A study of Mus musculus with 15 samples.

Results

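Autotaxin, the secreted enzyme encoded by Enpp2, and the genes that receive or end its lipid signal were followed across 15 RNA-seq libraries of 2 mouse tumour lines in which Ssbp4 had been altered. The group held 9 genes: Enpp2, the receptor genes Lpar1, Lpar2, Lpar3, Lpar4 and Lpar6, and the lipid phosphate phosphatase genes Plpp1, Plpp2 and Plpp3. They were matched by symbol, 9 of 9 in both tables, out of 54343 gene entries listed for MC38 and 55303 for B16-F10. The group was picked because Enpp2 stood far higher in MC38 cells overexpressing Ssbp4 than in wild-type MC38 cells, so every member's value in that contrast is given as a description with no test. The rule did not use the B16-F10 contrast, in which members were tested.

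MC38 is a colon adenocarcinoma line, although its tissue label reads melanoma, and B16-F10 is a melanoma line. The MC38 OE group (3 libraries) came from cells stably transduced with a retrovirus built on pMSCV-IRES-EGFP that carried Ssbp4 cDNA and also drives the fluorescent protein EGFP. The MC38 WT group (4 libraries) was wild type. No empty-vector MC38 group is named in the labels, so the effects of transduction and EGFP cannot be told apart from those of Ssbp4. The B16-F10 KO group (4 libraries) came from cells electroporated with Cas9 nuclease and several guide RNAs against Ssbp4, an edited population for which no cloning step is named. The B16-F10 WT group (4 libraries) received a control guide RNA directed at an intergenic part of chromosome 2. All cells were grown with fetal bovine serum, a known source of lysophosphatidic acid. Nothing in the labels says that replicates were grown as separate cultures, and each p-value therefore reflects variation among these libraries, possibly only technical.

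Ssbp4, which encodes a single-stranded DNA binding protein, was higher in OE and lower in KO than in the WT of each line. It averaged 534 ± 63.5 FPKM in MC38 OE and 16.3 ± 2.05 FPKM in MC38 WT (SD, n = 3 and 4; limma log2 fold change 4.95, adjusted p = 1.12e-09), and 22.1 ± 2.29 FPKM in B16-F10 KO and 34.5 ± 2.37 FPKM in B16-F10 WT (SD, n = 4 and 4; log2 fold change -0.62, adjusted p = 0.00869). The KO mean was 64.1% of the WT mean, so Ssbp4 mRNA was reduced and not absent in KO. An edited transcript can still be counted, and the loss of SSBP4 protein was not measured here, which limits what the KO label means for every B16-F10 result. FPKM scales the fragments of a gene by its length and by the library's mapped fragments, so it can be compared between genes of a library. Estimated depths were 32.2 to 38.0 M fragments for the MC38 libraries and 32.2 to 48.2 M for the B16-F10 libraries. In B16-F10 the libraries of the WT group stood apart on the first principal component, which held 42.8% of the variance. WT libraries 3 and 4 both lay at -17.8, WT libraries 1 and 2 at 9.42 and 10.3, and the KO libraries at 1.91 to 7.81. The MC38 groups were separated by the first component (74.8% of the variance). Each line was normalised in its own table, so levels set side by side across lines are descriptive.

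Autotaxin is a lysophospholipase D of the ENPP family that cleaves lysophosphatidylcholine outside the cell and releases lysophosphatidic acid (LPA), a growth-factor-like lipid. LPA acts through G protein-coupled receptors: LPAR1, LPAR2 and LPAR3 form the EDG group, and LPAR4, LPAR5 and LPAR6 are related to purinergic receptors. The lipid phosphate phosphatases PLPP1, PLPP2 and PLPP3 remove the phosphate of LPA, largely at the cell surface, and so end the signal. The pathway is known in tumours for its effects on cell migration and on immune cells, and autotaxin was originally isolated from melanoma cells as a motility factor.

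Promoter sequences are shown for the 2 members whose MC38 differences came next to that of Enpp2, Plpp3 and Lpar1. They were shown because a match to a LIM homeodomain core lies before an annotated start of each, in Lpar1 only before start 3. Proteins of the SSBP family act with the cofactor LDB1, which joins LIM homeodomain, GATA and E-box factors. The sequences are those of RefSeq on GRCm38.p6, an earlier build than the GRCm39 named for the tables, and 7 of the 9 members had an entry (Enpp2 and Plpp1 did not). Each is the 250 bases before an annotated start, 5′ to 3′ on the strand of the gene, and capitals mark motif matches. Lpar1 start 3 lies downstream of start 1 in the direction of transcription, so its window falls within the longer Lpar1 transcripts.
Plpp3, chr4:105157097-105157346, plus strand: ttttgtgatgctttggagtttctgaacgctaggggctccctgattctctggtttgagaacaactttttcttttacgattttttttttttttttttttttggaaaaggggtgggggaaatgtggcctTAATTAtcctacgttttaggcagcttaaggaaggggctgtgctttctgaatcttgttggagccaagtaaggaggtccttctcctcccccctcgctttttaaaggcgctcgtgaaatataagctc
Lpar1 start 1, chr4:58553492-58553741, minus strand: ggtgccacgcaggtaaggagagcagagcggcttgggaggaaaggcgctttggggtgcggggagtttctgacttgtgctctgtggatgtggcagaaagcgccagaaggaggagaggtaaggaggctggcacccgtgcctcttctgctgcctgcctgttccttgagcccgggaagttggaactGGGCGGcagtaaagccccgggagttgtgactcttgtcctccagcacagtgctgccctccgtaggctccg
Lpar1 start 3, chr4:58499404-58499653, minus strand: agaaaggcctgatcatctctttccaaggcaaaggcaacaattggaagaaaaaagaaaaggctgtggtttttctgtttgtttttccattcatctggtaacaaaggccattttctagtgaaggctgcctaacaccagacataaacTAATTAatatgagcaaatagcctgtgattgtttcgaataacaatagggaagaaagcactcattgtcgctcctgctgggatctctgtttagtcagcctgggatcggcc
The 5 motifs were searched on both strands in all 32851 promoter windows of the same length. The LIM homeodomain core TAATTA occurred in 4.84% of them, the GATA site AGATAA in 9.99%, the E-box CAGCTG in 13.0%, the GC box GGGCGG in 32.7% and the TATA box TATAAA in 12.4%. In Plpp3 the core TAATTA began at position -124, counted back from the start, with no other match. Lpar1 start 1 held a GC box at -69, and start 3 held TAATTA at -107. The remaining windows with a match were those of Lpar1 start 2, Lpar2, Lpar3 and Plpp2 (GC boxes only), Lpar4 (a GC box and a TATA box) and Lpar6 (an E-box). No matches overlapped. These matches describe the letters in the windows and say nothing about binding.

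**Figure D1:**
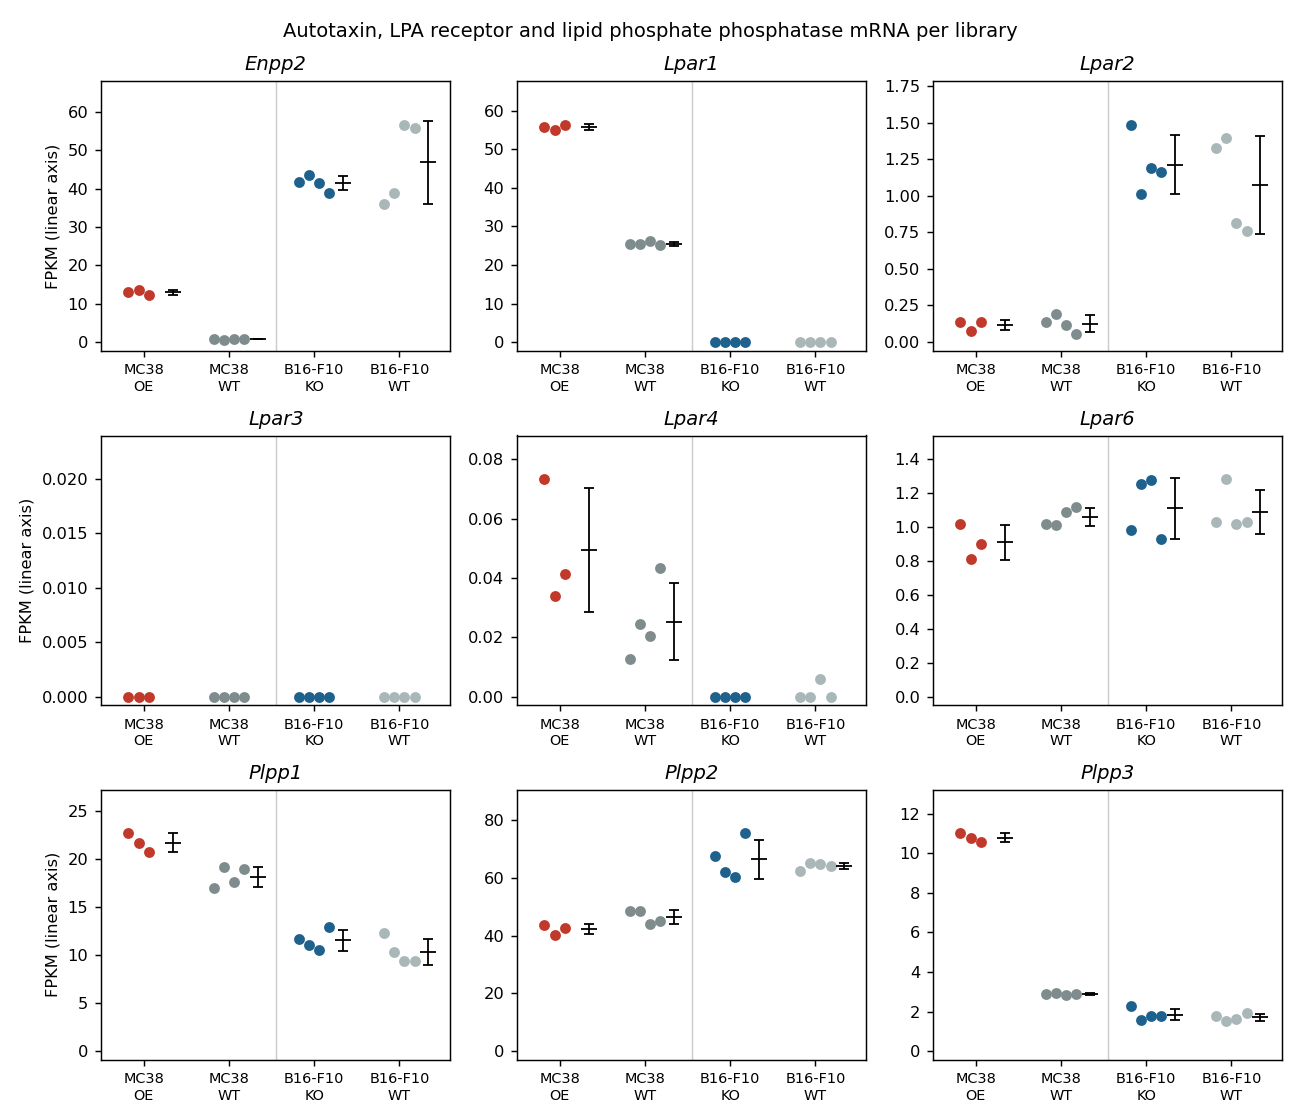
FPKM of each of the 9 members in every library (points, linear axes that include 0, with a different range in each panel), with the mean and SD beside each group whose libraries were all above 0. Enpp2, Lpar1 and Plpp3 sit far above wild type in MC38 OE, with 12.4 to 13.7, 54.9 to 56.4 and 10.6 to 11.0 FPKM. For every member the range of the B16-F10 KO points overlaps that of the B16-F10 WT points.

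In MC38, the gene for the enzyme that makes extracellular LPA showed the widest difference of the group. Enpp2 had 13.1, 13.7 and 12.4 FPKM in OE libraries 1 to 3, against 0.853, 0.664, 0.794 and 0.859 FPKM in WT libraries 1 to 4. All 3 OE libraries were high, every WT library stayed below 1 FPKM, and the groups did not overlap. The means were 13.0 ± 0.646 FPKM in OE and 0.792 ± 0.0904 FPKM in WT (SD, n = 3 and 4), 16.4-fold higher in OE. On the log2(FPKM + 1) scale, which understates the change of low genes, the difference was 2.97 with a pooled SD between libraries of 0.071, and 3.88 with a pseudocount of 0.1. This difference ranked 6 from the highest among 10748 genes whose mean was at least 1 FPKM. Enpp2 met that filter only through its OE libraries and was picked for this rise, so the rank is a description only. In bulk RNA, fewer cells expressing a gene and less RNA per cell cannot be told apart, and this holds for every level given here.

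Of the 9 members, 5 passed that filter in MC38, Enpp2 only through OE. For all 5 the OE and WT libraries did not overlap, 4 higher in OE and 1 lower. Over all 10748 genes the groups did not overlap for 50.6%, and 47.5% passed an adjusted p of 0.05 (limma), 23.9% higher and 23.6% lower. Because the members were chosen on this contrast, nothing is read from their count.

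Among the receptors MC38 expressed mainly Lpar1, the widely expressed EDG-group receptor that couples to Gi, Gq and G12/13 proteins. Lpar1 had 55.8, 54.9 and 56.4 FPKM in OE libraries 1 to 3, against 25.4, 25.5, 26.2 and 25.0 FPKM in WT libraries 1 to 4. The OE libraries lay together well above the WT libraries, with means of 55.7 ± 0.781 FPKM in OE and 25.5 ± 0.496 FPKM in WT (SD, n = 3 and 4). The OE mean was 2.18-fold that of WT, a log2 difference of 1.10 that ranked 139 of 10748. A same-strand pseudogene that overlaps Lpar1, Gm12577, averaged only 0.121 FPKM in MC38.

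The other receptors were low in MC38 and did not pass the filter. Lpar6, the P2Y-related receptor known from hair follicle biology, had 1.02, 0.808 and 0.900 FPKM in OE and 1.02, 1.01, 1.09 and 1.12 FPKM in WT, so the groups overlapped. Lpar6 lies within Rb1, a gene of the opposite strand that averaged 1.59 FPKM, and the labels do not say whether counting used strand, so its level is uncertain. Lpar2, an EDG-group receptor, stayed at 0.0792 to 0.141 FPKM in OE and 0.0528 to 0.193 FPKM in WT. Lpar4 had 0.0734, 0.0339 and 0.0412 FPKM in OE and 0.0127, 0.0246, 0.0205 and 0.0434 FPKM in WT, which corresponds to 12, 5 and 6 fragments in OE and 2, 4, 3 and 6 fragments in WT. These are counts of a few fragments with overlapping groups. Lpar3 was listed at 0 in all 15 libraries of both lines, where 3 fragments would have given 0.0252 to 0.0378 FPKM.

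Summed over LPAR1 to LPAR6 genes, receptor mRNA came to 56.8 ± 0.889 FPKM in MC38 OE and 26.7 ± 0.504 FPKM in MC38 WT (SD, n = 3 and 4). Lpar1 made up 98.1% of the sum in OE and 95.5% in WT. The sum includes Lpar5, a P2Y-related receptor gene outside the group of 9, which was listed at 0 in all 7 MC38 libraries. The receptor composition was therefore that of nearly a single gene in both MC38 groups.

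**Figure D2:**
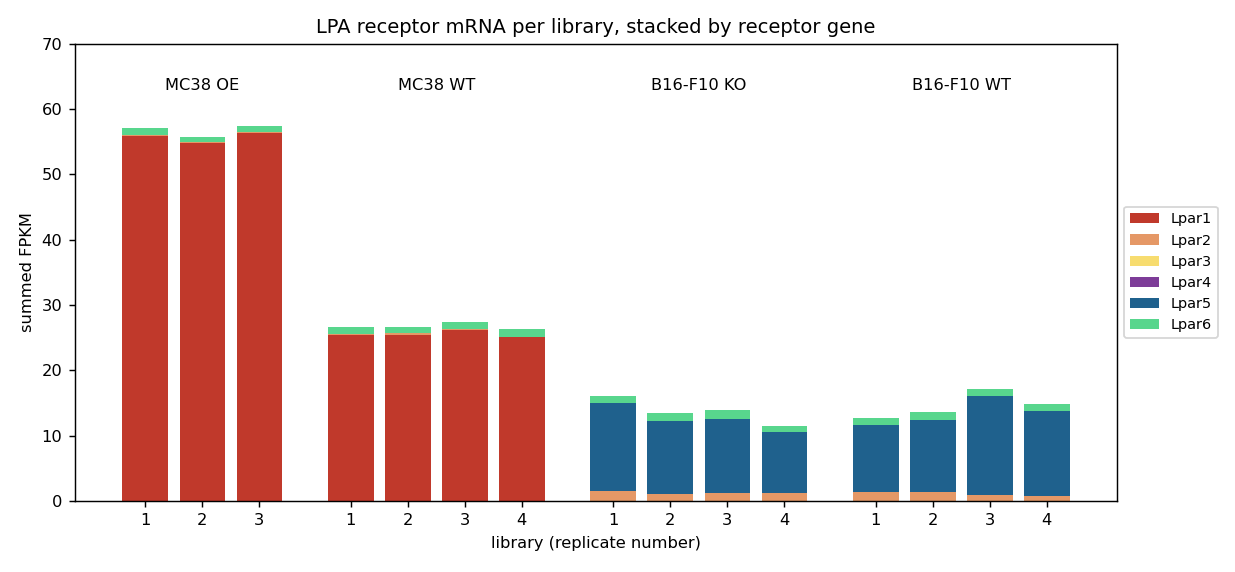
Stacked bars of receptor gene FPKM in each library (vertical axis from 0, replicate numbers along the horizontal axis), one colour per receptor gene and including Lpar5. MC38 bars are almost all Lpar1 and reach 55.8 to 57.5 FPKM in OE and 26.3 to 27.4 FPKM in WT, whereas B16-F10 bars are mostly Lpar5 and reach 11.5 to 16.03 FPKM in KO and 12.7 to 17.1 FPKM in WT.

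Of the phosphatases, Plpp3, an ecto-phosphatase that breaks down extracellular LPA and is essential in mouse development, differed most in MC38. Plpp3 had 11.0, 10.8 and 10.6 FPKM in OE libraries 1 to 3, against 2.88, 2.92, 2.82 and 2.87 FPKM in WT libraries 1 to 4. Neither group spread by more than a few percent of its mean, and the groups were far apart. The means were 10.8 ± 0.222 FPKM in OE and 2.87 ± 0.0444 FPKM in WT (SD, n = 3 and 4), 3.75-fold higher in OE. The log2 difference of 1.61 ranked 55 of 10748 genes.

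Plpp1 and Plpp2 are more abundant family members and differed little. Plpp1 had 22.7, 21.8 and 20.8 FPKM in OE, against 17.0, 19.2, 17.7 and 19.0 FPKM in WT, a log2 difference of 0.24. The lowest OE library lay above the highest WT library. Plpp1 overlaps Mtrex on the opposite strand, which averaged 50.9 FPKM, so the value of Plpp1 is uncertain if strand was not used in counting. Plpp2 had 43.8, 40.3 and 42.8 FPKM in OE, against 48.6, 48.7, 43.9 and 45.0 FPKM in WT, a log2 difference of -0.13. The highest OE library lay just below the lowest WT library. Genes on chromosome 10, where Plpp2 lies, had a median log2 fold change of -0.11, and the difference of Plpp2 was -0.033 after centring each library per chromosome.

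The composition of phosphatase mRNA also differed in MC38. Plpp3 made up 14.4% of their summed FPKM in OE and 4.25% in WT, while Plpp2 made up 56.5% in OE and 68.8% in WT. The sum was 74.8 ± 2.40 FPKM in OE and 67.6 ± 2.71 FPKM in WT (SD, n = 3 and 4). Set against receptor mRNA, there were 1.32 ± 0.0353 FPKM of phosphatase genes per FPKM of receptor genes in OE and 2.53 ± 0.131 in WT.

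Levels within each MC38 group had a clear order. In OE it ran, from the highest mean FPKM, Lpar1, Plpp2, Plpp1, Enpp2, Plpp3, Lpar6, Lpar2, Lpar4 and Lpar3, and in WT it ran Plpp2, Lpar1, Plpp1, Plpp3, Lpar6, Enpp2, Lpar2, Lpar4 and Lpar3. The ranges of neighbours over libraries did not overlap in either order. Lpar1 and Plpp2 thus stood in opposite order in the 2 groups, and Enpp2 stood above Plpp3 and Lpar6 in OE and below both in WT.

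Markers of other cells were read beside these differences. All 5 fibroblast and pericyte markers were above 0 in both MC38 groups, and their summed level was 385 to 393 FPKM in OE and 82.0 to 87.5 FPKM in WT. The sum was made up largely of Dcn, the proteoglycan decorin, with 320 FPKM in OE and 65.6 FPKM in WT, and of the receptor Pdgfra, with 66.1 FPKM in OE and 17.6 FPKM in WT. Lum, another proteoglycan, had 2.19 FPKM in OE and 0.219 FPKM in WT, the receptor Pdgfrb 1.88 FPKM in OE and 0.424 FPKM in WT, and the collagen Col1a1 0.178 FPKM in OE and 0.0627 FPKM in WT. For all 5 the lowest OE library lay above the highest WT library. Their part in the differences of Enpp2, Lpar1 and Plpp3 was not tested. The summed adipocyte markers were at 0.0320 to 0.250 FPKM in OE and 0.0816 to 0.227 FPKM in WT, with Lep and Cidec at 0, and the summed endothelial markers were at 0.164 to 0.287 FPKM in OE and 0.0388 to 0.107 FPKM in WT. Summed leukocyte markers did not exceed 0.0650 FPKM in OE or 0.0461 FPKM in WT, with Cd3e at 0. Colon epithelial markers were sparse for a line of that origin. Cdx2 was listed at 0 in every MC38 library, and Epcam at 0 in OE and at 0.658 to 1.05 FPKM in WT. Krt8 (9.45 FPKM in OE, 3.22 FPKM in WT) and Krt18 (0.0607 FPKM in OE, 3.23 FPKM in WT) were the only ones with a group mean of at least 1 FPKM.

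In B16-F10, no member passed the test between KO and WT. Of the 9 members 6 passed the filter, 0 had an adjusted p under 0.05 and 0 an unadjusted p under 0.05, and for 0 of the 6 did the groups separate. The background was low, since 2.23% of 10902 tested genes passed (limma with Benjamini-Hochberg adjustment), 1.33% higher and 0.899% lower, and 13.9% had groups that did not overlap. Without adjustment, 2325 genes had a p under 0.05. The split of calls depended on scaling: it was 145 higher and 98 lower as deposited, 226 and 83 after rescaling to a common total, 84 and 112 with median-of-ratios factors and 55 and 94 after centring per chromosome. Over all alternatives tried, the lowest adjusted p of any member was 0.148, for Plpp1.

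Enpp2 was abundant in this melanoma line. It had 41.7, 43.4, 41.5 and 38.9 FPKM in KO libraries 1 to 4, against 36.1, 38.9, 56.7 and 55.7 FPKM in WT libraries 1 to 4. The KO libraries lay close together, above WT libraries 1 and 2 (KO library 4 only just) and below WT libraries 3 and 4, the libraries that stood apart. The means were 41.4 ± 1.85 FPKM in KO and 46.8 ± 10.9 FPKM in WT (SD, n = 4 and 4). The log2 fold change was -0.15 (SE 0.14, 95% interval -0.46 to 0.17, limma adjusted p = 0.590), and it lay between -0.26, without WT library 1, and -0.047, without WT library 3, when single libraries were left out. A change within the 95% interval, in either direction, was not resolved by these libraries.

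The receptors of B16-F10 differed from those of MC38 in kind. Lpar5 led, with 13.6, 11.2, 11.4 and 9.43 FPKM in KO, against 10.4, 11.0, 15.3 and 13.0 FPKM in WT (log2 fold change -0.11, limma adjusted p = 0.673). It made up 82.9% of summed receptor FPKM in KO and 84.8% in WT, the sums being 13.7 ± 1.85 FPKM in KO and 14.6 ± 1.88 FPKM in WT (SD, n = 4 and 4). Lpar1, the leading receptor of MC38, was listed at 0 in 7 of 8 B16-F10 libraries, KO library 2 having 0.0131 FPKM.

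Lpar2 had 1.49, 1.01, 1.19 and 1.16 FPKM in KO, against 1.33, 1.39, 0.813 and 0.757 FPKM in WT, so that WT libraries 1 and 2 were high and WT libraries 3 and 4 low, with the KO libraries spread between and above them. Its log2 fold change was 0.10 (95% interval -0.17 to 0.38, limma adjusted p = 0.678), and 0.029 without WT library 4 and 0.18 without WT library 2. Lpar6 had 0.983, 1.25, 1.28 and 0.927 FPKM in KO, against 1.03, 1.28, 1.01 and 1.03 FPKM in WT, so the groups overlapped, KO libraries 1 and 4 lying below the lowest WT library. Its log2 fold change was 0.013 (95% interval -0.19 to 0.21, limma adjusted p = 0.954). Genes of chromosome 14, where Lpar6 lies, had a median log2 fold change of 0.16, and Lpar6 stood at -0.13 after centring each library per chromosome. Its opposite-strand neighbour Rb1 averaged 4.43 FPKM here. Lpar4 was listed at 0 except in WT library 3, where 0.0058 FPKM corresponds to 1 fragment.

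The phosphatase genes also overlapped between KO and WT. Plpp2, the most abundant member in both groups, had 67.7, 62.3, 60.4 and 75.5 FPKM in KO, against 62.6, 65.1, 64.9 and 64.3 FPKM in WT, so the KO libraries spread to both sides of WT. Its log2 fold change was 0.043 (95% interval -0.11 to 0.19, limma adjusted p = 0.761). Plpp1 had 11.6, 11.0, 10.5 and 13.0 FPKM in KO, against 12.3, 10.3, 9.40 and 9.37 FPKM in WT, with a log2 fold change of 0.15 (95% interval -0.059 to 0.35, limma adjusted p = 0.392). This was the lowest p among the members, 0.141 before adjustment, and 3 KO libraries lay below WT library 1. The log2 fold change of Plpp1 was 0.093 without KO library 4 and 0.23 without WT library 1. Plpp3 had 2.27, 1.57, 1.75 and 1.80 FPKM in KO, against 1.75, 1.51, 1.61 and 1.95 FPKM in WT, with a log2 fold change of 0.071 (95% interval -0.14 to 0.28, limma adjusted p = 0.711). The highest Plpp3 value was that of KO library 1, without which the log2 fold change was 0.0026, and the other KO libraries lay inside the WT range.

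**Figure D3:**
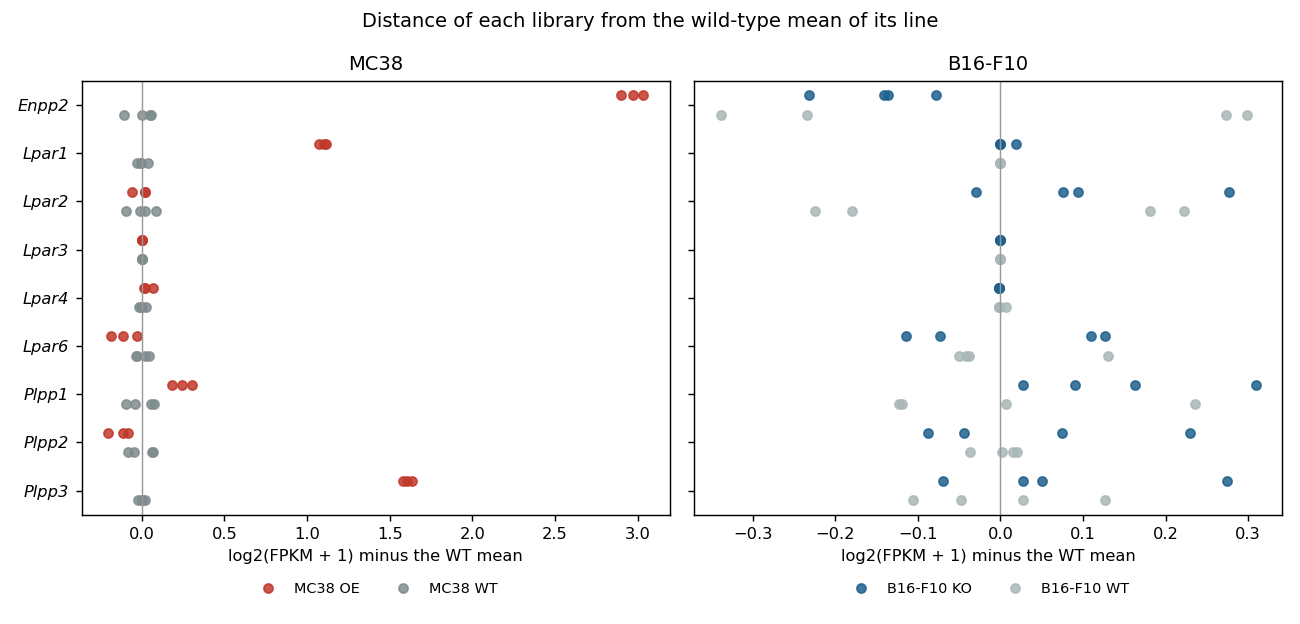
Each library's log2(FPKM + 1) minus the mean of the WT libraries of its line (horizontal axis, with a wider range for MC38 than for B16-F10), for the 9 members from top to bottom. In MC38 the OE points of Enpp2, Plpp3 and Lpar1 lie around 2.97, 1.61 and 1.10. In B16-F10 the KO and WT ranges of every member overlap. All KO points of Plpp2 lie outside its WT range, on both sides of it. Some KO points of Plpp1, Plpp3, Lpar1, Lpar2 and Lpar6 also lie outside the WT range. The WT points of Enpp2 and Lpar2 fall into separate pairs.

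Levels in B16-F10 were ordered Plpp2, Enpp2, Plpp1 and Plpp3 in both groups, with no overlap between neighbours. Lpar2 and Lpar6 followed and overlapped each other in KO and in WT, and Lpar1, Lpar3 and Lpar4 were at or next to 0. Phosphatase genes summed to 79.8 ± 7.92 FPKM in KO and 76.3 ± 0.625 FPKM in WT, or 5.93 ± 1.29 FPKM per FPKM of receptor genes in KO and 5.30 ± 0.686 in WT (SD, n = 4 and 4). The melanocyte markers were those of the labelled cell type, all 6 having a group mean of at least 1 FPKM and summing to 8845 to 9325 FPKM in KO and 6766 to 9220 FPKM in WT. Of the markers of oligodendrocytes, a cell type known for autotaxin, Mbp averaged 17.9 FPKM in KO and 14.95 FPKM in WT, while the defining markers Mog and Mobp were listed at 0 in every B16-F10 library. The summed fibroblast and pericyte markers were 3.86 to 4.30 FPKM in KO and 2.54 to 2.74 FPKM in WT, mostly Pdgfrb, and Dcn and Lum were at 0 in KO.

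Beyond the 9 genes, 87 genes of LPA metabolism and signalling in 8 lists were read in the same fits. In MC38, 53 were tested, of which 21 rose and 15 fell, with a median log2 fold change of -0.013 against -0.0088 for all tested genes. In B16-F10, 55 were tested, of which 2 rose and 0 fell, with a median of 0.051 against 0.024 for all tested genes. The MC38 share, and the count of each list given below, has to be read against the 47.5% of all genes that passed there. Of all tested genes, 23.9% passed as higher and 23.6% as lower in MC38. In B16-F10, 2.23% of all tested genes passed. No list was tested as a set.

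**Figure D4:**
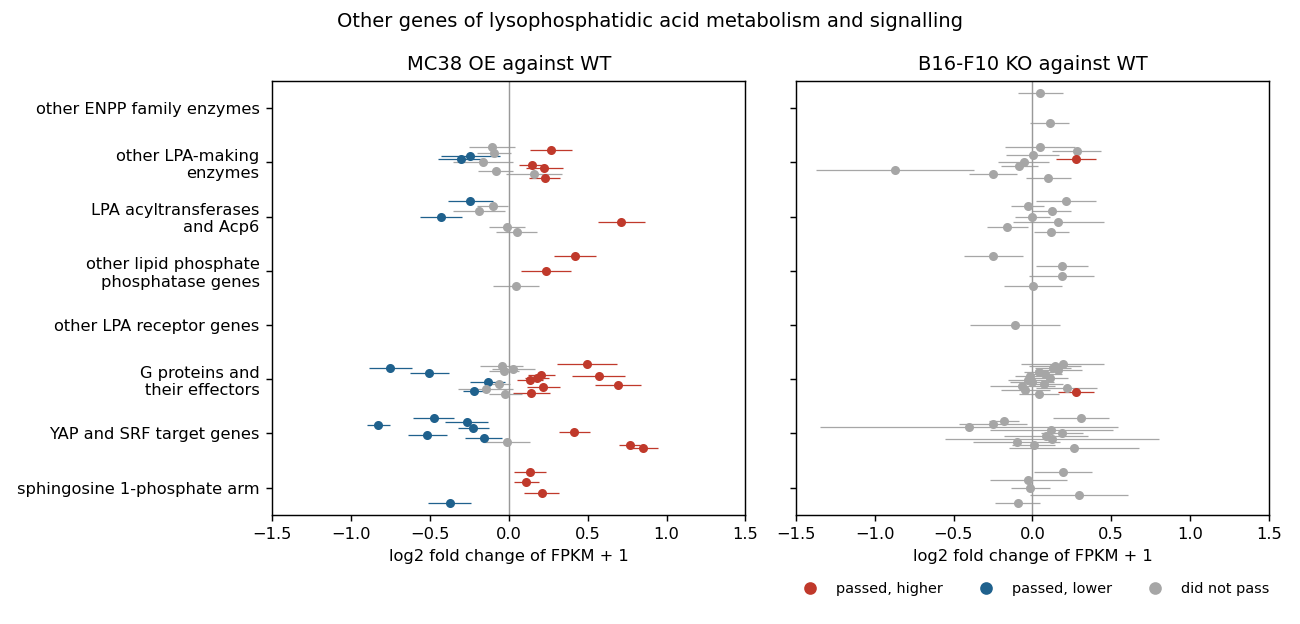
Log2 fold changes of FPKM + 1 with 95% intervals for the tested genes of the 8 lists (one point per gene, OE against WT in MC38 on the left and KO against WT in B16-F10 on the right), coloured by whether the gene passed an adjusted p of 0.05. MC38 points pass on both sides of 0, between -0.83 for Ankrd1 and 0.85 for Vcl, and only Gdpd1 (0.27) and Rock1 (0.28) pass in B16-F10.

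Enzymes that make LPA or its precursors by other routes moved little in MC38 OE. Of 11 tested, 4 rose and 2 fell, and the median log2 fold change was -0.082. Ddhd1, a phospholipase A1 that acts on phosphatidic acid, averaged 5.47 ± 0.340 FPKM in OE and 4.37 ± 0.178 FPKM in WT (log2 fold change 0.27, limma adjusted p = 0.00480). Pld2, a phospholipase D that makes phosphatidic acid, averaged 11.8 ± 0.149 FPKM in OE and 9.96 ± 0.204 FPKM in WT (log2 fold change 0.23, limma adjusted p = 0.00178). Gpam, the mitochondrial acyltransferase that makes LPA inside the cell, fell to 3.35 ± 0.292 FPKM in OE, against 4.36 ± 0.161 FPKM in WT (log2 fold change -0.30, limma adjusted p = 0.00387). Gdpd1, an intracellular lysophospholipase D, had a log2 fold change of -0.24 (limma adjusted p = 0.0359), but did not pass without OE library 2 or 3 or without WT library 1, 3 or 4 (adjusted p up to 0.145 over the alternatives). These differences were smaller than that of Enpp2, but Enpp2 was picked for its rise in this contrast, so nothing is read from that. The other ENPP family enzymes had 0 of 6 tested members in MC38, where Enpp4 was the highest, with 0.881 to 1.17 FPKM in OE and 0.177 to 0.372 FPKM in WT.

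The genes that consume LPA were mixed. Of the 7 tested genes on the list of LPA acyltransferases and Acp6, 1 rose and 2 fell. Without WT library 1 the numbers were 1 and 4, and they were the same with library weights. Agpat4, which turns LPA into phosphatidic acid, rose to 8.29 ± 0.466 FPKM in OE, against 4.68 ± 0.357 FPKM in WT (log2 fold change 0.71, limma adjusted p = 1.52e-05). Agpat3, an enzyme of the same reaction, fell to 30.4 ± 1.48 FPKM in OE, against 41.3 ± 3.13 FPKM in WT (log2 fold change -0.43, limma adjusted p = 2.29e-04). Acp6, a mitochondrial LPA phosphatase, fell by 0.24 on the log2 scale, and the other 4 did not pass. Of the 3 tested relatives of the lipid phosphate phosphatases, Plpp5 rose by 0.42 and Plpp6, a phosphatase of isoprenoid diphosphates, by 0.24. Plpp6 did not pass without OE library 1 (highest adjusted p over the alternatives 0.0797).

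Of the 18 tested genes of G proteins and their effectors downstream of LPA receptors, 8 rose and 4 fell in MC38. Over all tested genes 47.5% passed. Plcb1, a phospholipase C driven by Gq, rose to 3.38 ± 0.0619 FPKM in OE, against 1.71 ± 0.117 FPKM in WT (log2 fold change 0.69). Gnai1, an inhibitory G protein subunit, rose to 2.59 ± 0.184 FPKM in OE, against 1.42 ± 0.127 FPKM in WT (0.57). On the G12/13 arm, Arhgef11, a guanine nucleotide exchange factor activated by those G proteins, fell to 8.02 ± 0.573 FPKM in OE, against 14.2 ± 0.848 FPKM in WT (-0.75), and Gna12 fell to 16.7 ± 1.03 FPKM in OE, against 24.1 ± 1.28 FPKM in WT (-0.50). These 4 had limma adjusted p-values of at most 1.57e-04 (SD, n = 3 OE and 4 WT). The arm was mixed. Gna13, the partner of Gna12, rose to 27.2 ± 0.916 FPKM in OE, against 23.4 ± 0.367 FPKM in WT (0.20, limma adjusted p = 0.00154), and the exchange factor gene Akap13 rose to 1.76 ± 0.0460 FPKM in OE, against 0.969 ± 0.171 FPKM in WT (0.49, limma adjusted p = 9.42e-04). Rock1, a kinase that acts on the actin cytoskeleton, rose by 0.14 (limma adjusted p = 0.0459), and the exchange factor genes Arhgef1 (-0.043) and Arhgef12 (0.029) did not pass.

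Target genes of YAP and SRF, transcriptional regulators that LPA is known to activate, moved in both directions. Of 10 tested, 3 rose and 6 fell, where 47.5% of all tested genes passed. The actin-linking protein gene Vcl rose to 91.7 ± 2.62 FPKM in OE, against 50.5 ± 2.45 FPKM in WT (log2 fold change 0.85), and the tropomyosin gene Tpm1 rose to 619 ± 6.09 FPKM in OE, against 364 ± 6.30 FPKM in WT (0.77). The YAP target Ankrd1 fell to 27.8 ± 0.245 FPKM in OE, against 50.2 ± 0.799 FPKM in WT (-0.83), and Crim1, another listed target, fell to 8.18 ± 0.354 FPKM in OE, against 12.1 ± 0.639 FPKM in WT (-0.52). All 4 passed with limma adjusted p-values of at most 3.69e-05, and under each of the 17 alternatives tried. The third gene that rose was Ccn1, also a YAP target, with 66.2 ± 1.62 FPKM in OE and 49.4 ± 2.41 FPKM in WT (0.42, limma adjusted p = 3.06e-05). The others that fell were Ajuba (-0.47), Amotl2 (-0.27), Axl (-0.22) and Lats2 (-0.16), with limma adjusted p-values of at most 0.0295. Srf (-0.013) did not pass. Of the 4 tested genes of the sphingosine 1-phosphate arm, a related lipid signal that the same phosphatases also act on, 3 rose, among them the phosphatase gene Sgpp1 (0.21) and the receptor gene S1pr2 (0.13), and 1 fell, the kinase gene Sphk2 (-0.37). Without OE library 2 or 3 or WT library 3 only 2 of the 4 passed, and 7 passed with a filter of 0.1 FPKM or none. With the replicate number as a block only 1 passed, which was lower in OE, and Sgpp1 had an adjusted p of 0.0533. S1pr2 did not pass without any 1 of the OE libraries or without WT library 1 or 3 (highest adjusted p over the alternatives 0.112).

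In B16-F10 KO, only Gdpd1 and Rock1 passed among the listed genes. Gdpd1 averaged 28.4 ± 0.431 FPKM in KO and 23.4 ± 1.77 FPKM in WT (SD, n = 4 and 4; log2 fold change 0.27, limma adjusted p = 0.0467), and Rock1 14.8 ± 0.562 FPKM in KO and 12.0 ± 0.588 FPKM in WT (0.28, limma adjusted p = 0.0391). Each call depended on single libraries. Gdpd1 passed only without WT library 1 and Rock1 only without KO library 4 when single libraries were left out, with adjusted p of up to 0.155 and 0.153 over the alternatives. Genes of chromosome 18, where Rock1 lies, had a median log2 fold change of 0.12, and after centring per chromosome Rock1 had a log2 fold change of 0.16 and did not pass (limma adjusted p = 0.153). In the lists with no call, the most abundant tested genes were Enpp5 (14.3 FPKM in KO, 13.2 FPKM in WT), Agpat1 (61.4 FPKM in KO, 62.7 FPKM in WT), Plpp5 (8.38 FPKM in KO, 10.2 FPKM in WT), Tpm1 (259 FPKM in KO, 258 FPKM in WT) and Sgpl1 (54.2 FPKM in KO, 55.8 FPKM in WT), with limma adjusted p-values of 0.138 to 0.960.

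The profile of Enpp2 over the 15 libraries was set against those of 10740 genes tested in MC38 and listed in both tables. Likeness was the root-mean-square difference between profiles of log2(FPKM + 1), each centred within each line, and its median over genes was 1.03. The 5 nearest were Asb4 (0.165), Rgs5 (0.171), Ghr (0.179), Ifi44 (0.206) and Scara5 (0.219). Nearness rests largely on the MC38 difference for which Enpp2 was picked, so a shared step there is built in and no support. Asb4, Rgs5, Ifi44 and Scara5 averaged 0.230 to 0.711 FPKM in MC38 WT. Like Enpp2, they met the filter of 1 FPKM only through OE. Asb4, an ankyrin repeat and SOCS box protein, averaged 13.1 ± 0.836 FPKM in MC38 OE and 0.580 ± 0.0851 FPKM in MC38 WT, close to the levels of Enpp2. Rgs5, a regulator of G protein signalling, averaged 9.19 ± 0.357 FPKM in MC38 OE and 0.230 ± 0.0546 FPKM in MC38 WT, and Ghr, the growth hormone receptor, 36.2 ± 1.85 FPKM in MC38 OE and 4.98 ± 0.382 FPKM in MC38 WT.

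The likeness came from MC38, because most of these genes were low in B16-F10. Rgs5 and Ifi44 had group means of at most 0.0100 FPKM there, and Asb4 had 0.192 FPKM in KO and 0.187 FPKM in WT, whereas Enpp2 stood at 41.4 FPKM in KO and 46.8 FPKM in WT. Ghr, which lies on chromosome 15 as Enpp2 does, had 1.47 ± 0.213 FPKM in KO and 1.92 ± 0.357 FPKM in WT. Within the group of 9, Plpp3 was nearest to Enpp2, with a root-mean-square difference of 0.496 and rank 50, followed by Lpar1 with 0.655 and rank 126.

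**Figure D5:**
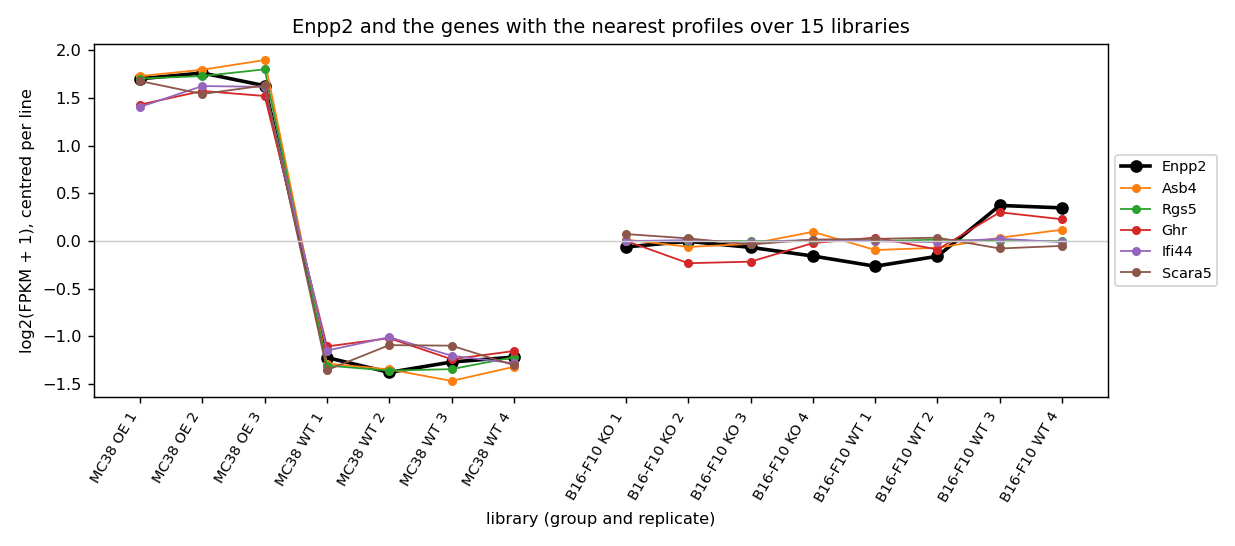
Log2(FPKM + 1) of Enpp2 and of the 5 genes with the nearest profiles, centred on the mean of each line, in the 15 libraries (lines join libraries of a line and carry no order). All 6 genes step between OE and WT in MC38, which the choice by nearness to Enpp2 builds in. In B16-F10 only Enpp2 and Ghr depart visibly from 0, both higher in WT libraries 3 and 4.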

How the data were processed

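Libraries of polyadenylated RNA came from a strand-marking kit, per the labels' protocols. For each line the authors deposited 1 table of FPKM by gene symbol. GRCm39 and DESeq2 are named, with no version, per the submitters' processing notes. Aligner, counter, annotation and use of strand were not given in the sources used here. FPKM columns summed to between 482580 and 511160, and 0 columns were left unmatched to a sample. The members and gene lists were chosen with earlier results of these data known.

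Each line was fitted alone in limma 3.58.1 (R 4.3.3, mean-variance trend, two-sided tests) on log2(FPKM + 1) of genes with a mean of at least 1 FPKM within the line. Adjustment over all tested genes followed Benjamini and Hochberg. Whole reads were not recovered for nearly all genes, so no count model was used: 83.6 to 87.7% of low values lay within 0.1 of a whole number of fragments, given the lengths of single-transcript genes in GENCODE M21. That annotation, on GRCm38, served for lengths and overlaps only, and the RefSeq table for chromosomes and promoters. Fragment numbers cover counting error only. The procedure was tested on simulated data.

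Genes named are the members, Ssbp4, from each list and line up to 2 called genes with the highest and 2 with the lowest log2 fold change among those without overlap between groups (the most abundant tested gene where none was called), and the 5 nearest profiles to Enpp2. Some genes of the marker lists are not reported here. Marker genes, neighbours on the genome, Enpp4, Sgpp2, Amotl2 and the remaining receptor gene Lpar5 were named besides these with their values known. So were, in MC38, Gna13, Akap13, Arhgef1, Arhgef12, Rhoa, Rock1, Rock2, Ccn1, Ajuba, Axl, Lats2 and Srf. The alternatives varied the pseudocount, the filter, the scaling, the variance model, library weights, the replicate block and centring per chromosome, or dropped 1 library at a time. Centring per chromosome was applied to counts of calls after seeing the data. Python 3.11.15 with matplotlib 3.10.9 drew the figures.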

Additional observations from a re-analysis of the deposited data

Results flagged for a closer look

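Of 25 groups of 4 libraries examined, 4 held a library set far from the others. In 2 of the 4 the other libraries were all listed at 0, so that any value above 0 stands out by construction, and the rate at which chance flags groups, about 1 in 20, does not apply to them. Ssbp4 in MC38 WT library 1 stood at 13.2 FPKM, with the other WT libraries at 17.0 to 17.6 FPKM. Lpar6 in B16-F10 WT library 2 stood at 1.28 FPKM, with the other WT libraries at 1.01 to 1.03 FPKM. Lpar1 in B16-F10 KO library 2 stood at 0.0131 FPKM and Lpar4 in B16-F10 WT library 3 at 0.0058 FPKM, the other libraries of each group being at 0.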

How the results depend on the processing

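The MC38 differences of Enpp2, Lpar1, Plpp1, Plpp2 and Plpp3 kept their sign under all 17 alternatives, and that of Enpp2 moved to 3.88 with a pseudocount of 0.1 and lay between 2.93 and 3.00 when single libraries were left out. No member passed in B16-F10 under any of 18 alternatives. Lpar6 changed sign there after centring per chromosome (-0.13) and ran from -0.026 to 0.056 when libraries were left out, and Plpp2 changed sign with library weights (-0.015) and ran from -0.019 to 0.086. The cause was not tested. The count of MC38 calls, 5107, stayed between 3906 and 5463. The count of B16-F10 calls, 243, was 140 with a filter of 0.1 FPKM, 73 with no filter, 776 with library weights (whose estimation stopped before convergence) and 149 after centring per chromosome. Leaving out libraries gave 23 to 414: KO libraries 1 to 4 gave 27, 23, 26 and 414, and WT libraries 1 to 4 gave 93, 119, 44 and 41. Of the listed genes, 2 passed in B16-F10, and 1 did with a filter of 0.1 FPKM and with median-of-ratios scaling (Rock1), with no filter (Sgpp2) and after centring per chromosome (Amotl2, lower at -0.21), 7 with library weights, and 0 to 4 when libraries were left out. Genes well below 0.1 FPKM, such as Lpar4, rest on few fragments, and 4 libraries a group resolve only part of the small changes.

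Replicate numbers did not pair the samples: the correlations of same-numbered deviations were -0.29, -0.066 and -0.074 in MC38 and -0.11, -0.18, 0.17 and -0.30 in B16-F10. With the replicate number as a block, 3906 genes passed in MC38 and 12 in B16-F10, and 0 listed genes passed in B16-F10.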
